A study of Homo sapiens with 4 samples.

Results

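Integrins are the main receptors through which a cell holds on to the matrix around it, and laminins are the basement membrane proteins that several epithelial integrins bind. The 38 genes described here are every gene of the deposited tables whose symbol names an integrin α subunit (ITGA, 18 genes), an integrin β subunit (ITGB with a number, 8 genes) or a laminin chain (LAMA, LAMB or LAMC with a number, 12 genes), out of 16878 genes in all. They were measured by RNA-seq in PANC-1, an established human cell line from a pancreatic duct carcinoma, in 2 Control libraries and 2 libraries from cells that received an siRNA directed at SIRT1 (siSIRT1). The transfection ran for 48 h in both groups, and the labels name no other agent, genotype or allele for either group. SIRT1 is an NAD-dependent protein deacetylase, and the series compares gene expression of these cancer cells with and without its knockdown. Nothing in the labels says that replicates came from separate cultures, so the p-values measure only the spread between these libraries, which may be technical.

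An integrin is a pair of an α and a β subunit, and the pair decides which ligand is bound. β1 pairs with most α subunits, giving laminin receptors with α3, α6 and α7, collagen receptors with α1, α2, α10 and α11, and receptors for the RGD motif of fibronectin with α5, α8 and αV. αV also pairs with β3, β5, β6 and β8, α6 pairs with β4 in hemidesmosomes, and β2 and β7 serve mainly leukocytes. A laminin is a trimer of an α, a β and a γ chain, numbered by its chains, so that laminin-511 holds LAMA5, LAMB1 and LAMC1. LAMA3 and LAMB3 are chains of laminin-332, a laminin of epithelial basement membranes.

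The values are FPKM (sequenced fragments per unit of transcript length, divided by the total mapped in the library), which correct for transcript length and so allow levels of different genes to be compared. Depth estimated from the steps of low values was 8710000 to 9160000 reads per library. SIRT1 itself stood at 10.46 and 10.25 FPKM in Control against 1.80 and 2.05 in the siSIRT1 libraries, 18.6% of the Control mean, which is the direction the labels give (log2 fold change -1.96 ± 0.11 SE, limma adjusted p = 1.33e-05). The siRNA that the study lists against SIRT1 is shown here because it defines the siSIRT1 group; what the Control cells received is given only as a control.

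siSIRT1: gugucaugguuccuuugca

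Read as DNA, these 19 bases are held by 4 of the 6 SIRT1 transcripts of GENCODE. The strand that pairs with the mRNA is shown next with its seed, bases 2 to 8, in capitals.

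siSIRT1 guide strand: uGCAAAGGaaccaugacac

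The site that pairs with this seed, CCUUUGC, lies in the 3′ UTR of 3 of the 21 integrin and laminin genes tested (ITGA5, ITGAE and LAMB3), against 15.6% of the 11930 tested genes with a 3′ UTR.

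Cell type was checked on marker lists, which do not identify the cell line. KRT8, KRT18 and KRT19, keratins of simple epithelia, stood at 312.82 FPKM or more in every library, VIM was high as well (1426.62 to 2198.36 FPKM), and KRT7, EPCAM and CDH1 lay between 2.89 and 11.21 FPKM. All 4 endothelial markers and all 5 fibroblast and smooth muscle markers stayed under 1 FPKM in every library, as did the 3 acinar and endocrine markers that the tables list. Of the leukocyte markers, PTPRC was at 0.97 to 1.29 FPKM, while CD68, CD14 and LYZ, which other cells can express, summed with it to 84.6 to 84.7 FPKM in Control and 58.9 to 67.3 in siSIRT1, most of it CD68. Of the 2 platelet markers listed, PF4 reached 0.14 FPKM and GP1BA 1.57 to 2.59 FPKM. In a bulk sample, fewer cells of a type and less RNA per cell cannot be told apart.

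Most expressed integrin genes fell after SIRT1 knockdown, and expressed laminin genes passed the test at a rate near that of all genes, in both directions. Of 26 integrin genes, 11 averaged 1 FPKM or more across all 4 libraries and were tested, and 8 of these fell and none rose (at an unadjusted p under 0.05 only ITGAE was higher, and it was called without the variance trend). Of 12 laminin genes, 10 were tested, and LAMA3 and LAMB3 rose, LAMB1 fell and 7 did not pass. LAMA3 entered the test only through its siSIRT1 values. The test was limma on log2(FPKM + 1), with p-values adjusted over all 12191 genes tested and a threshold of 0.05. Over all those genes 37.1% passed, 24.0% as higher and 13.1% as lower in siSIRT1. The median log2 fold change was -0.75 over the 11 integrins and 0.03 over the 10 laminins, against 0.07 over all genes tested. The 2 groups did not overlap in 10 of the 11 integrins and in 5 of the 10 laminins, against 69.0% of all genes tested. Under the study's own thresholds (fold over 1.2 and p under 0.001, taken here as unadjusted), 7 integrins fell and the same number of laminins passed as before, 2 higher and 1 lower, against 18.1% of all genes. Scaling the libraries by the median of ratios took the share of higher calls among all genes from 64.8% to 50.1%, with 8 integrins lower and the laminin counts as before.

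**Figure D1:**
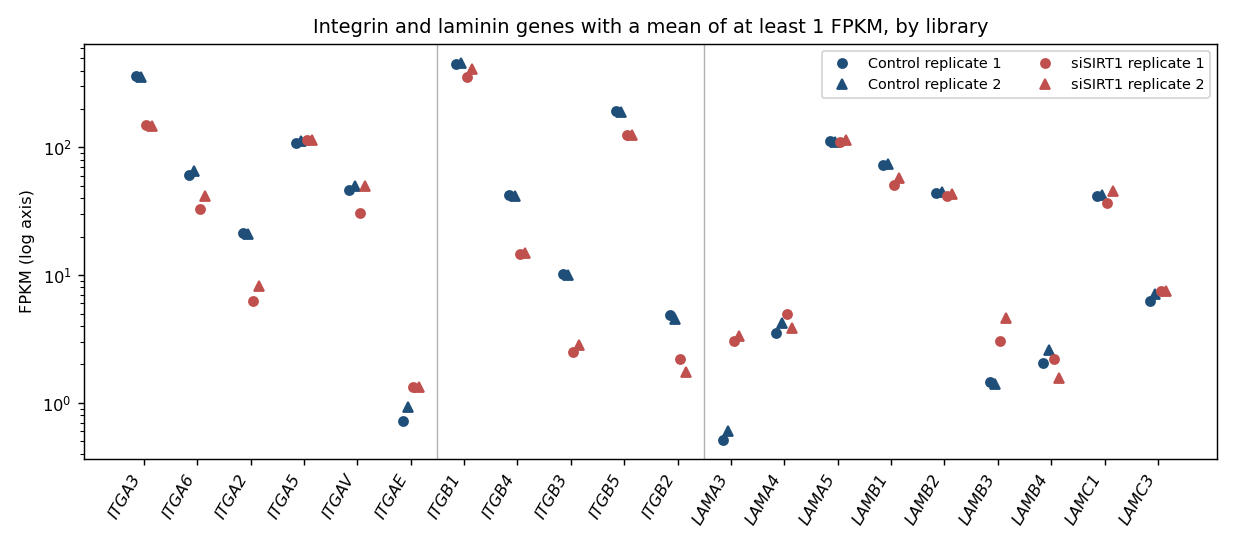
FPKM on a log axis of integrin and laminin genes that averaged 1 FPKM or more, with 1 point per library (blue Control, red siSIRT1; circles replicate 1, triangles replicate 2). Integrin α subunits, integrin β subunits and laminin chains are separated by vertical lines; ITGA3 falls from about 360.2 to 148.4 FPKM on average, and LAMA3 is the gene that moves farthest upward.

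The laminin receptors lost message in both of their tested α subunits. ITGA3, whose α3β1 receptor binds laminin-332 and laminin-511, was the most abundant α subunit in Control, at 361.20 and 359.17 FPKM, and stood at 150.26 and 146.60 FPKM in siSIRT1. The siSIRT1 mean was 41.2% of Control, far outside the spread of either pair of libraries (log2 fold change -1.27 ± 0.06 SE, adjusted p = 3.35e-06). ITGA6, which builds α6β1 and α6β4, measured 60.84 and 65.34 FPKM in Control, and 32.88 and 41.88 FPKM after knockdown. The groups did not overlap, although the siSIRT1 libraries lay farther apart than the Control libraries (log2 fold change -0.75 ± 0.10 SE, adjusted p = 0.000881). ITGB4, which carries the long cytoplasmic tail that anchors hemidesmosomes to keratin, had 42.41 and 41.31 FPKM in Control compared with 14.67 and 14.79 in siSIRT1, or 35.2% of Control (log2 fold change -1.45 ± 0.07 SE, adjusted p = 4.31e-06). Within each library ITGB4 was 0.697 and 0.632 of ITGA6 in Control and 0.446 and 0.353 of it in siSIRT1, so that the ratio was lower in both siSIRT1 libraries. ITGA7, the third laminin-binding α subunit, ran from 0.64 to 1.05 FPKM with overlapping groups and was not tested. The exons of ITGB4 (chr17:73717408-73753899, plus strand, GRCh37) overlap GALK1 on the other strand, and whether the counting used strand is not given in the sources used here. GALK1 itself was found at 20.32 and 18.80 FPKM in Control, with 22.55 and 20.60 FPKM after SIRT1 knockdown.

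The collagen receptor α2β1 lost message as well. ITGA2, its α subunit, stood at 21.51 and 21.08 FPKM in Control against 6.21 and 8.15 in the siSIRT1 libraries, 33.7% of Control (log2 fold change -1.46 ± 0.12 SE, adjusted p = 6.44e-05). Its chromosomal neighbour ITGA1 (chr5:52083750-52255039, with ITGA2 at chr5:52285170-52390609, both plus strand, GRCh37) also codes for a collagen-binding subunit, but was at 0.10 to 0.38 FPKM. ITGA10 stood at 1.08 and 0.81 FPKM in Control but at 0.44 FPKM in each siSIRT1 library, about 49 and 37 reads against 19 and 20, below the mean that the test required. ITGA11 did not exceed 0.19 FPKM.

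The fibronectin receptor α5β1 differed from these, since its α subunit did not pass. ITGA5 measured 109.12 and 111.71 FPKM in Control, and 115.10 and 115.17 FPKM after knockdown. The siSIRT1 values lay above Control by less than the test could separate (log2 fold change 0.06 ± 0.06 SE, 95% interval -0.07 to 0.19, adjusted p = 0.436), an interval that leaves out a fall of the size seen in ITGA3. ITGB1, the shared β subunit and the most abundant integrin gene, had 448.53 and 459.48 FPKM in Control compared with 353.65 and 407.78 in siSIRT1, 83.9% of Control (log2 fold change -0.26 ± 0.08 SE, adjusted p = 0.0299). This was the smallest of the 8 integrin falls, and its call was lost without the variance trend (adjusted p = 0.0934), with no filter on low values (0.107) and without Control replicate 1 (0.178) or Control replicate 2 (0.241). Without siSIRT1 replicate 1 its log2 fold change was -0.15, with adjusted p = 0.0446.

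The make-up of the pool of α subunits differed between the groups. The 12 α subunits that can pair with β1 summed to 601.0 and 610.1 FPKM in Control and to 337.2 and 363.2 FPKM in siSIRT1. ITGA3 was 60.1% and 58.9% of that sum in Control and 44.6% and 40.4% of it in siSIRT1. ITGA5 went the other way, from 18.2% and 18.3% to 34.1% and 31.7%, without a change in its own level that passed the test. The share of ITGA2 was 3.58% and 3.46% in Control against 1.84% and 2.24% in siSIRT1, while that of ITGA6 overlapped between the groups (10.1% and 10.7% against 9.75% and 11.5%). The laminin-binding pair ITGA3 and ITGA6 together held 70.2% and 69.6% of the α pool in Control and 54.3% and 51.9% in siSIRT1. Such shares within a library do not depend on how libraries are scaled to each other, and they are given as a description, since 2 libraries against 2 allow no exact test below p = 0.333.

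The β3 and β5 partners of αV fell, while αV itself gave no call, and whether its change differed from theirs was not tested. ITGAV was found at 46.09 and 50.17 FPKM in Control, with 30.45 and 49.43 FPKM after SIRT1 knockdown, so that the groups overlapped and the difference did not pass (log2 fold change -0.30 ± 0.18 SE, 95% interval -0.71 to 0.11, adjusted p = 0.221). That value rests on which siSIRT1 library is used, being -0.64 without siSIRT1 replicate 2 (adjusted p = 0.00208) and 0.04 without siSIRT1 replicate 1 (adjusted p = 0.701), and it was called lower with the replicate number as a block (-0.30, adjusted p = 0.0161). ITGB3, which with αV makes the vitronectin receptor, stood at 10.24 and 10.06 FPKM in Control against 2.51 and 2.82 in the siSIRT1 libraries. At 26.3% of Control this was the largest fall among the tested integrins and laminins (log2 fold change -1.61 ± 0.11 SE, adjusted p = 2.67e-05), rank 35 from the largest fall among 12191 genes. ITGB5, the more abundant partner of αV, measured 191.23 and 190.45 FPKM in Control, and 125.32 and 124.71 FPKM after knockdown, 65.5% of Control (log2 fold change -0.61 ± 0.05 SE, adjusted p = 0.000109). β5 message exceeded β3 message 18.7 and 18.9 times in the Control libraries and 49.9 and 44.2 times in the siSIRT1 libraries. ITGB8 ran from 0.57 to 0.94 FPKM and ITGB6 did not exceed 0.05 FPKM, the groups overlapping in both.

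The leukocyte integrins were low, as PTPRC was, with 1 member that fell. ITGB2, the β subunit of the leukocyte receptors for ICAM1 and complement, had 4.91 and 4.54 FPKM in Control compared with 2.21 and 1.73 in siSIRT1 (log2 fold change -0.95 ± 0.13 SE, adjusted p = 0.000904). The markers on the leukocyte list did not all differ in one direction. CD68 had 62.96 and 60.77 FPKM in Control and 42.34 and 39.09 in siSIRT1, and CD14 had 5.11 and 5.49 FPKM against 4.45 and 3.17, both without overlap. LYZ (15.31 and 17.20 against 19.54 and 15.33 FPKM) and PTPRC (1.21 and 1.22 against 0.97 and 1.29 FPKM) overlapped between the groups. The part of other cells in the ITGB2 result was not tested. Of the α partners of β2, ITGAM was found at 0.12 and 0.15 FPKM in Control, with 0.74 and 1.09 FPKM after SIRT1 knockdown, or about 5 and 6 reads against 30 and 46. It was not among the genes tested, and in a fit with no filter on low values its log2 fold change was 0.75 (adjusted p = 0.0179), a rise opposite in direction to that of its partner. In the same fit ITGA10 had a log2 fold change of -0.43 (adjusted p = 0.0417), and none of the other 15 low members passed. ITGAL, ITGAX and ITGAD did not exceed 1.00 FPKM and their groups overlapped. ITGAE, which pairs with β7 to bind E-cadherin, stood at 0.72 and 0.93 FPKM in Control against 1.34 and 1.33 in the siSIRT1 libraries, and did not pass (log2 fold change 0.36 ± 0.14 SE, adjusted p = 0.0800). It entered the test only through its siSIRT1 values. ITGB7 stayed at or below 0.48 FPKM. The other low members, ITGA4, ITGA8, ITGA9 and ITGA2B (the platelet partner of β3), did not exceed 0.98 FPKM. In all, 17 members (15 integrins and 2 laminins) were not tested, with values from 0.00 to 1.09 FPKM. The groups did not overlap in 3 of them, ITGA10, ITGA2B and ITGAM, while 69.0% of all genes tested had no overlap. That share was not computed for other genes this low, so the count is only a description.

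**Figure D2:**
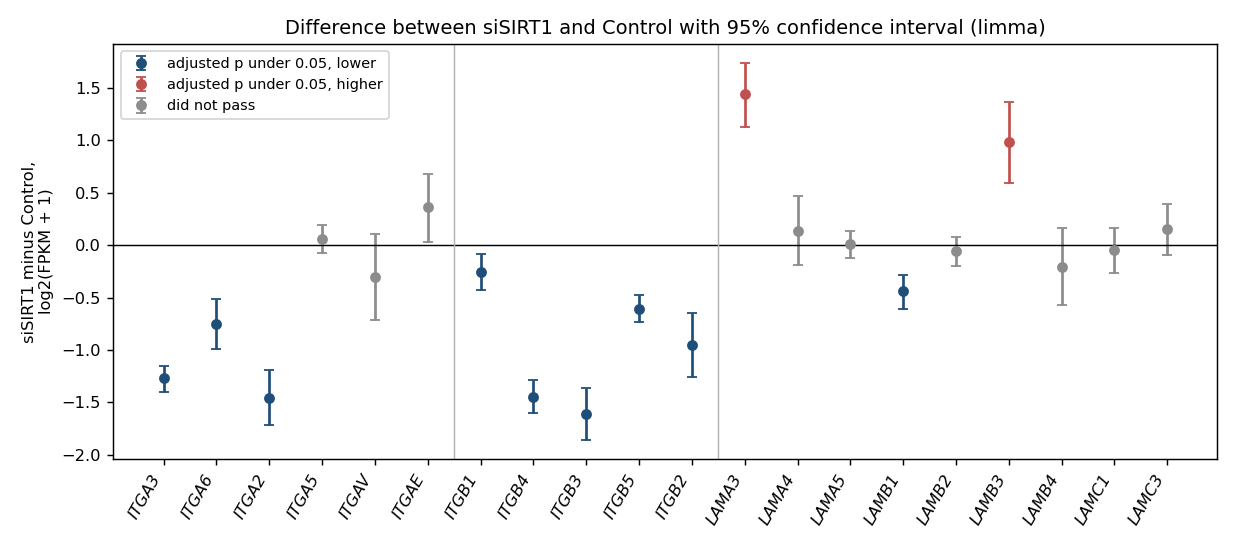
Difference between siSIRT1 and Control on the log2(FPKM + 1) scale for tested integrin and laminin genes, with limma's 95% confidence interval (n = 2 libraries per group). Blue points passed as lower, red as higher and grey did not pass; 8 of 11 integrins lie below 0 as calls, and among laminins only LAMA3, LAMB3 and LAMB1 passed.

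Read by receptor, 24 α and β pairs were considered and both subunits were tested in 8 of them. Both subunits fell in 4 pairs, namely α2β1, α3β1, α6β1 and α6β4. In the other 4, α5β1, αVβ1, αVβ3 and αVβ5, the β subunit fell and the α subunit did not pass. No tested pair held a subunit that rose. Every fall of β1 counted here is the same ITGB1 call, which some of the alternative settings did not give. The ratio of ITGA3 to ITGB1 was 0.805 and 0.782 in the Control libraries and 0.425 and 0.360 in the siSIRT1 libraries, and that of ITGA5 to ITGB1 was 0.243 in both Control libraries and 0.325 and 0.282 in siSIRT1. No measurement of protein or of surface receptor was analysed here. In all 8 pairs with both subunits tested, the α and β genes lie on different chromosomes. On GRCh37, ITGA3 spans chr17:48133332-48167845 and ITGB3 chr17:45331193-45391109 (both plus strand), ITGA6 spans chr2:173292082-173371187 (plus strand), ITGB1 chr10:33176201-33294720 and ITGB5 chr3:124480795-124620265 (both minus strand). Among the 11 called members, exons of the canonical transcript overlapped another gene of the tables only in ITGB4 and LAMB1.

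Among laminin α chains, the abundant chain did not pass and a scarce one rose. LAMA5, the α chain of laminin-511 and laminin-521, measured 112.77 and 111.20 FPKM in Control, and 111.10 and 114.68 FPKM after knockdown (log2 fold change 0.01 ± 0.06 SE, 95% interval -0.12 to 0.14, adjusted p = 0.895). LAMA3, the α chain of laminin-332, had 0.51 and 0.60 FPKM in Control compared with 3.06 and 3.36 in siSIRT1. These values rest on about 48 and 58 Control reads against 282 and 322 siSIRT1 reads, and the siSIRT1 mean was 5.78 times that of Control (log2 fold change 1.44 ± 0.13 SE on the log2(FPKM + 1) scale, adjusted p = 0.000132). LAMA3 (chr18:21269417-21536186, plus strand, 75 exons, GRCh37) passed the filter on low values only through its siSIRT1 libraries, and its call carries that limit. In a limma fit with no filter on low values its log2 fold change was 1.44 (adjusted p = 0.00625). LAMA3 made up only 2.57% and 2.76% of the summed α chains in siSIRT1, against 0.436% and 0.517% in Control. LAMA4, an α chain of vessel and muscle basement membranes, was found at 3.53 and 4.23 FPKM in Control, with 4.96 and 3.83 FPKM after SIRT1 knockdown, with overlapping groups (adjusted p = 0.481). LAMA1 and LAMA2 did not exceed 0.06 FPKM.

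Among β chains LAMB3 rose with LAMA3 and LAMB1 fell. LAMB3 (chr1:209788215-209825770, minus strand, GRCh37), the β chain of laminin-332, stood at 1.46 and 1.39 FPKM in Control against 3.04 and 4.64 in the siSIRT1 libraries, about 51 and 50 reads against 104 and 165 (log2 fold change 0.98 ± 0.17 SE, adjusted p = 0.00263). LAMB1, the β chain of laminin-511, measured 73.16 and 74.38 FPKM in Control, and 50.83 and 57.23 FPKM after knockdown, 73.2% of Control (log2 fold change -0.44 ± 0.07 SE, adjusted p = 0.00165). LAMB2, its counterpart in laminin-521, was lower in siSIRT1 by a difference that did not pass (43.80 and 44.90 against 41.92 and 43.32 FPKM, log2 fold change -0.06 ± 0.06 SE, adjusted p = 0.514). As a share of the summed β chains, LAMB1 stood at 60.7% and 60.4% in Control and at 51.9% and 53.6% in siSIRT1, while LAMB2 stood at 36.4% in both Control libraries and at 42.8% and 40.6% in siSIRT1. LAMB4 lies beside LAMB1 (chr7:107663993-107770806 and chr7:107564244-107643658, both minus strand, GRCh37) but was scarce, at 2.06 and 2.57 FPKM in Control against 2.22 and 1.55 in siSIRT1, and did not pass (adjusted p = 0.350). The exons of LAMB1 overlap DLD on the other strand, and DLD had 11.51 and 12.19 FPKM in Control compared with 13.62 and 13.96 in siSIRT1.

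The γ chains LAMC1 and LAMC3 did not pass, and neither had an unadjusted p under 0.05. LAMC1, the γ chain of most laminins, was found at 41.82 and 42.68 FPKM in Control, with 36.66 and 45.24 FPKM after SIRT1 knockdown, so that the Control libraries lay between the siSIRT1 libraries (log2 fold change -0.05 ± 0.09 SE, adjusted p = 0.704). Without siSIRT1 replicate 2 it passed as lower (log2 fold change -0.20, adjusted p = 0.0436). LAMC3 measured 6.27 and 7.11 FPKM in Control, and 7.54 and 7.53 FPKM after knockdown (adjusted p = 0.293).

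Of the trimers that hold LAMC1, laminin-511 and laminin-521 had the highest level in their least abundant chain, 36.66 FPKM or more in every library. That chain was LAMC1 for laminin-511 in all 4 libraries. The α3 and β4 subunits, parts of receptors for laminin-332, fell in the libraries in which LAMA3 and LAMB3 rose.

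**Figure D3:**
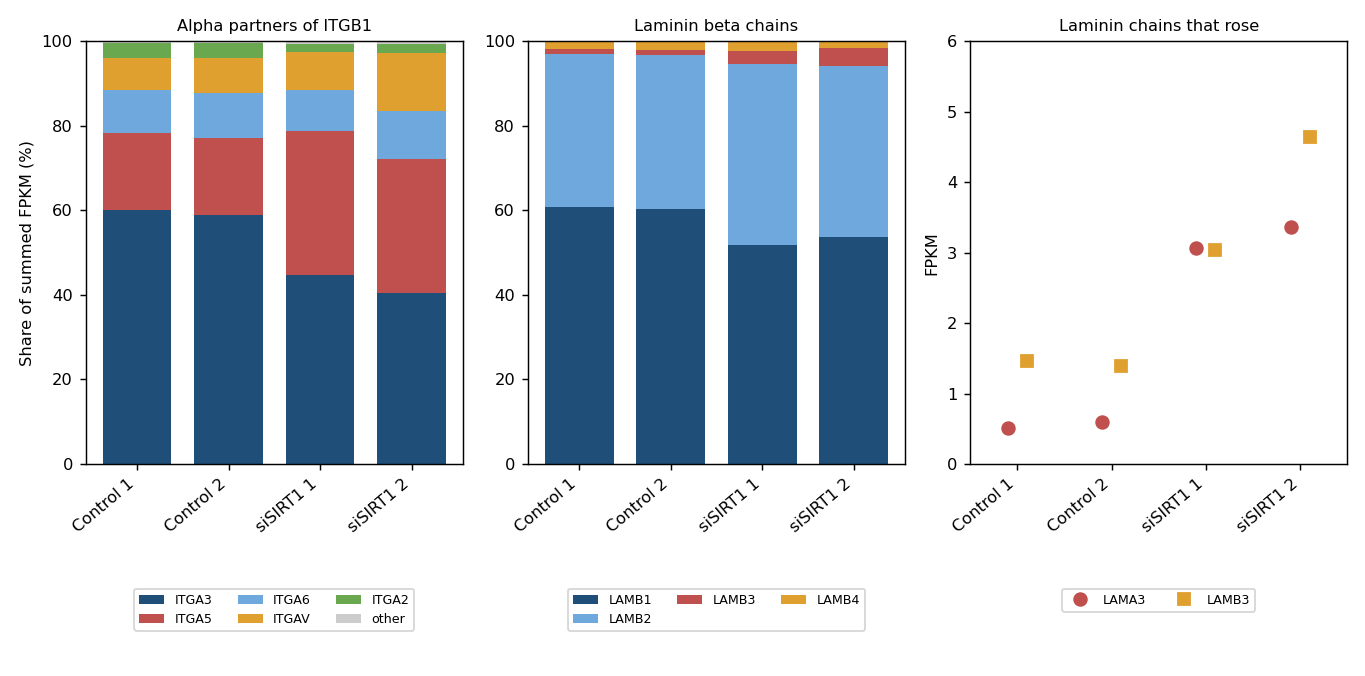
Left and middle, shares (%) of the summed FPKM of the α subunits that can pair with ITGB1 and of the laminin β chains, with 1 stacked bar per library; right, FPKM of LAMA3 and LAMB3 by library, on an axis that starts at 0. The share of ITGA3 is 60.1% and 58.9% in Control against 44.6% and 40.4% in siSIRT1, and LAMA3 and LAMB3 lie higher in both siSIRT1 libraries than in either Control library.

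Promoter sequences of the 2 chains that rose are shown beside those of 2 members that fell and 1 that did not pass, because LAMA3 and LAMB3 rose together. Each is a window of 300 bases, from 250 before to 50 after a listed start, taken from the RefSeq promoter table on GRCh38.p14, which lists 33 such windows for 26 of the 38 genes. ITGA3, ITGB2, ITGB3, ITGB4 and LAMC3 have no entry. Capitals mark TGANTCA, the element bound by AP-1 (the same on both strands), and the GC box GGGCGG or its reverse complement CCGCCC. The windows are LAMA3 at chr18:23872770-23873069 (plus strand), LAMB3 at chr1:209651325-209651624 (minus strand, 1 of 3 listed starts), ITGA2 at chr5:52989102-52989401 (plus strand), LAMB1 at chr7:108003112-108003411 (minus strand) and ITGA5 at chr12:54419217-54419516 (minus strand).

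LAMA3: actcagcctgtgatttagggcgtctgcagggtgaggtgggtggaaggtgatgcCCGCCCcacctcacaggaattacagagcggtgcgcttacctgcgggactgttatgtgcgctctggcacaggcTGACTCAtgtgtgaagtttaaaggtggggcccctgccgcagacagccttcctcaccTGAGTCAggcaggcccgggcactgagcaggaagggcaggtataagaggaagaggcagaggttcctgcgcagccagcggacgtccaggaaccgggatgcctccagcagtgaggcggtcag
LAMB3: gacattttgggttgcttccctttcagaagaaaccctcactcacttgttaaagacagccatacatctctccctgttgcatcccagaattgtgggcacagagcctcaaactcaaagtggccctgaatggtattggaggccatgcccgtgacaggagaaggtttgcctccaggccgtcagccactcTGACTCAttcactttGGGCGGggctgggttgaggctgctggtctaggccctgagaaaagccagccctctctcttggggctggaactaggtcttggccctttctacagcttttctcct
ITGA2: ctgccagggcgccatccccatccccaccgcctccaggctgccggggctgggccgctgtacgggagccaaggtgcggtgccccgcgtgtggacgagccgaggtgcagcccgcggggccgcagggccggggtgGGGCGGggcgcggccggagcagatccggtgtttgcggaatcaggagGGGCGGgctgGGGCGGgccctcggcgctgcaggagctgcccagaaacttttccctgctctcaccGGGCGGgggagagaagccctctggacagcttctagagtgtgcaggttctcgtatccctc
LAMB1: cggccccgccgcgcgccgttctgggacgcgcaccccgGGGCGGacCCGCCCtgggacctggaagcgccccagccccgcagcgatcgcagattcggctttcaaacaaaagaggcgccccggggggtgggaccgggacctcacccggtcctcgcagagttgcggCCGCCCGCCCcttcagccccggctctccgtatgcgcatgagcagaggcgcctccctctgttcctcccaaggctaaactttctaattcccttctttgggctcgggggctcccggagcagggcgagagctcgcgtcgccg
ITGA5: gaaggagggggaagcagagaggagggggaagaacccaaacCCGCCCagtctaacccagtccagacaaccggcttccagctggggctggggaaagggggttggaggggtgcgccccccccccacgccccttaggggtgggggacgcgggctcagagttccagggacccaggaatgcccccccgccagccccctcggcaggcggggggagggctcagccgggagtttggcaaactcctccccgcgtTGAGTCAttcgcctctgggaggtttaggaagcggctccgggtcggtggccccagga

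The LAMA3 window held 2 AP-1 matches, 125 and 69 bases before the listed start, and the LAMB3 window shown held 1, 67 bases before it. The windows at the other listed LAMB3 starts held none. ITGA5, whose level did not pass, held 1 match 6 bases before its start, and no other window of the 33 held any. Over all 35116 windows listed, 7.71% held an AP-1 match. GC boxes were in 19 of the 33 windows, against 45.0% of all windows, and the 4 matches each of ITGA2 and LAMB1 (2 of those in LAMB1 overlap each other) were among them. The listed starts, that of LAMA3 included, were not matched to the transcripts behind the exon count and read estimates above. The motifs were chosen after the values and sequences had been seen, a match is not a bound site, and which start PANC-1 cells use was not measured.

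The machinery that ties integrins to actin moved in both directions. Of 43 genes listed, 37 were tested, 13 rose and 7 fell, with a median log2 fold change of 0.13 against 0.07 over all genes, of which 24.0% rose and 13.1% fell. The excess of rises depended on the scaling, with 9 higher and 9 lower under the median of ratios and 10 and 9 under quantile normalization or equal FPKM sums. TGFB1I1 (Hic-5), a relative of paxillin at focal adhesions, was found at 6.99 and 8.98 FPKM in Control, with 15.67 and 13.53 FPKM after SIRT1 knockdown (log2 fold change 0.80 ± 0.13 SE, adjusted p = 0.00157). The tensin TNS2, which binds the tail of β subunits, fell from 25.12 and 25.00 to 13.74 and 12.95 FPKM (log2 fold change -0.86 ± 0.08 SE, adjusted p = 9.39e-05). TNS4, another tensin, had 1.71 and 1.81 FPKM in Control and 0.37 and 0.82 in siSIRT1. It is given as values only, since it passed the filter on low values through its Control libraries alone. The 7 falls counted above include TNS4. LIMS1 (PINCH1), the partner of the kinase ILK, fell from 16.06 and 15.28 to 8.92 and 9.19 FPKM (-0.73, adjusted p = 0.000383). The count of 20 calls dropped to 13 without Control replicate 1 and to 12 without Control replicate 2.

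Among hemidesmosome proteins and other proteins that bind laminin or its integrins, 12 of 15 were tested, 2 rose and 5 fell. Under the median of ratios 1 rose and 6 fell. The median log2 fold change was -0.09, and over all genes tested 24.0% rose and 13.1% fell. BCAM, a receptor for the laminin α5 chain, fell from 56.08 and 54.80 to 24.51 and 26.21 FPKM (log2 fold change -1.10 ± 0.07 SE, adjusted p = 1.52e-05). The tetraspanin CD151, which associates with α3β1 and α6β4, fell from 775.97 and 780.75 to 631.89 and 601.16 FPKM (-0.34, adjusted p = 0.00426), and the tetraspanin CD82 from 18.65 and 21.32 to 12.83 and 15.09 FPKM (-0.49, adjusted p = 0.00612). RPSA, a ribosomal protein also described as a laminin receptor, rose from 348.30 and 341.75 to 470.77 and 454.44 FPKM (0.42, adjusted p = 0.000939), and its many processed pseudogenes make its reads uncertain. COL17A1, KRT5 and KRT14, which mark stratified epithelium, did not exceed 1.33 FPKM and were not tested. The 7 calls of this list became 4 without the variance trend, 3 without Control replicate 1 and 2 without Control replicate 2, CD151 being lost without either Control library (adjusted p = 0.117 and 0.126) and CD82 without Control replicate 2 (0.0546).

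The partners of laminin in the basement membrane gave both rises and falls. Of 24 genes, 14 were tested, 5 rose and 6 fell (3 and 6 under the median of ratios). The median log2 fold change was -0.05, and over all genes tested 24.0% rose and 13.1% fell. The collagen IV chains COL4A1 and COL4A2, which form the second network of the basement membrane, rose from 1.02 and 0.99 to 2.57 and 2.82 FPKM (log2 fold change 0.88 ± 0.13 SE, adjusted p = 0.00123) and from 3.57 and 3.12 to 6.38 and 6.60 FPKM (0.79, adjusted p = 0.00113). HSPG2 (perlecan), a heparan sulfate proteoglycan, fell from 129.24 and 130.26 to 61.51 and 62.77 FPKM (-1.05, adjusted p = 8.55e-06). PXDN (peroxidasin), which cross-links collagen IV, had 1.72 and 2.37 FPKM in Control and 0.56 and 0.70 in siSIRT1. It too passed the filter through its Control libraries alone, and the 6 falls counted above include it. The 11 calls became 7 without either Control library.

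Of 31 integrin ligands other than laminins that were listed, 29 were found, 17 were tested, 9 rose and 6 fell. Under the median of ratios 7 rose and 6 fell. The median log2 fold change was 0.33, against 0.07 over all genes tested, of which 24.0% rose and 13.1% fell. TGFB3, among the rises, passed the filter on low values only through its siSIRT1 libraries. The fibrillar collagens COL1A1 and COL3A1 rose from 18.78 and 18.17 to 131.34 and 126.34 FPKM (log2 fold change 2.74 ± 0.06 SE, adjusted p = 1.08e-07) and from 4.08 and 4.04 to 18.86 and 19.35 FPKM (1.99, adjusted p = 3.93e-06), while COL1A2, the usual partner of COL1A1, did not exceed 0.06 FPKM. EDIL3, a secreted RGD protein bound by αV integrins, rose from 1.48 and 1.61 to 5.87 and 9.12 FPKM (1.71, adjusted p = 0.000223). TNC (tenascin-C), a matrix glycoprotein, fell from 2.92 and 3.42 to 1.03 and 1.18 FPKM (-0.98, adjusted p = 0.000857). FN1, the main ligand of α5β1, did not exceed 0.50 FPKM. The collagen receptor subunit ITGA2 thus fell in the libraries in which these fibrillar collagen genes rose.

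**Figure D4:**
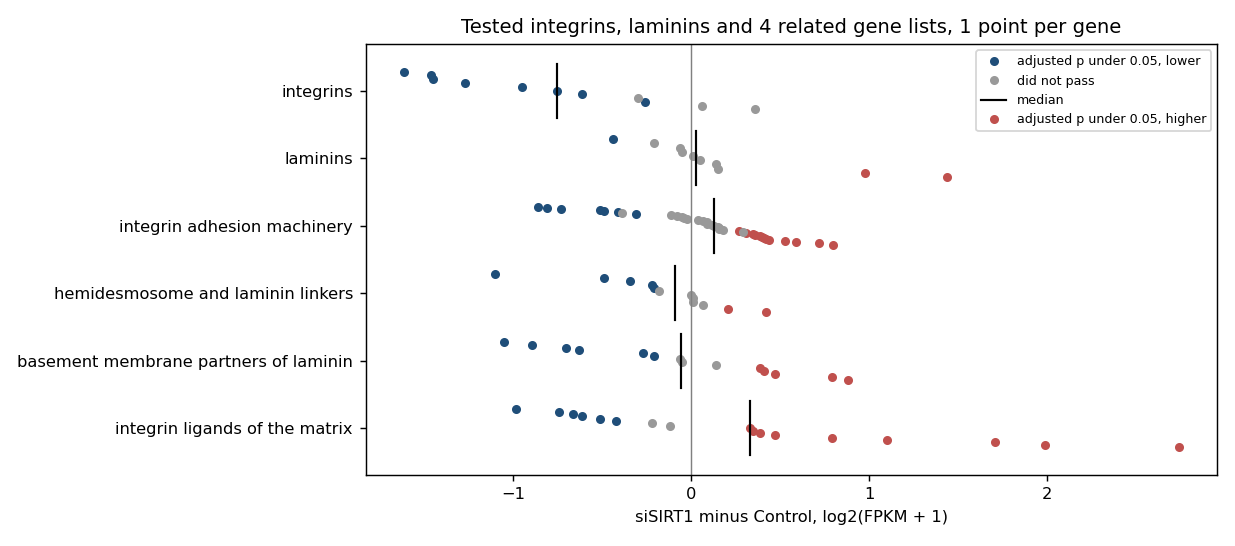
Log2 fold change (siSIRT1 minus Control on the log2(FPKM + 1) scale) of every tested integrin, laminin and gene of the 4 related lists, with 1 point per gene and a black bar at each median. Integrin points lie mostly left of 0 (median -0.75), while the laminin median is 0.03 and each list holds calls on both sides.

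The integrin and laminin genes differed more between the 2 siSIRT1 libraries than between the 2 Control libraries. The SD of the log2 difference between replicates over the 21 tested members was 0.24 in siSIRT1 and 0.09 in Control, against 0.21 and 0.16 over all genes. Over the 11996 tested genes with a transcript model the difference between the siSIRT1 libraries had a Spearman rho of -0.40 with transcript GC content and 0.44 with transcript length, and over the 21 members -0.41 and 0.20. Between the Control libraries the same values were -0.19 and 0.18 over all genes and -0.39 and 0.17 over the members. The members' rank correlation with GC content was thus alike in both groups. A rank correlation does not measure the size of a difference, and the members' spread was larger in siSIRT1. The genes share their libraries and are not independent, so these are descriptions. Removing each library's trend on length left 8 integrins lower, and so did removing its trend on GC content, an alternative chosen after the data had been seen. In both, 3 laminins passed. ITGAV (GC content 38.3%) and ITGA6 (42.5%), with lower values in siSIRT1 replicate 1, are among the members of low GC content, and the part of GC content in their spread was not tested.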

How the data were processed

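RNA was measured in 4 PANC-1 libraries, 2 Control and 2 siSIRT1, grouped by the treatment given in the labels. The authors deposited 1 table of FPKM values per library, with 2 decimals. The submitters' processing notes name HISAT, Bowtie2, RSEM and ChIPseeker without versions, and the genome build and strand setting of the RNA-seq are not given in the sources used here. Since the deposited values are FPKM, the count tests planned for count tables (edgeR, DESeq2) were not run. limma 3.58.1 (R 4.3.3; lmFit, eBayes with trend) was fitted to log2(FPKM + 1) for the 12191 of 16878 genes that averaged 1 FPKM or more, unpaired, two-sided, with Benjamini-Hochberg adjustment over all of them and a threshold of 0.05. The pseudocount understates changes of low genes. The script was tested on simulated data. Values are means of 2 libraries, errors are SE, and intervals are 95%.

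Depth was estimated from steps of 1 read in low FPKM values (499 single-exon candidate genes, 89 to 111 used per library, step scores 0.512 to 0.612 against 0.179 to 0.331 for jittered values), and reads per gene are approximate. They cover counting error only. Gene models came from GENCODE 44 on GRCh37 (38 of 38 genes matched) and names from RefSeq (16846 of 16878 identifiers matched). The genes, the 4 related lists and the marker lists were chosen with earlier results of these data known. Tested members were described one by one, though some items are not reported here, and up to 4 genes per list were named: the largest rise and fall among calls without group overlap, then the next largest changes. Alternatives were a pseudocount of 0.1, no filter, 3 scalings, no variance trend, length and GC adjustment (lowess span 0.3), the replicate number as a block, the study's thresholds and leaving out each library.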

Additional observations from a re-analysis of the deposited data

How the results depend on the processing

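Of the 11 integrin and laminin genes called, 10 were called under every alternative run and without any 1 library, the exception being ITGB1. The 8 integrin calls ranged from 7 to 9 over the alternatives and the laminin calls stayed at 3. No called gene changed sign, also with a library left out. The integrins called were not always the same. With no filter on low values 8 were lower and 1 was higher, with ITGA10 (lower) and ITGAM (higher) added and ITGB1 lost. Without the variance trend 7 were lower and 1 was higher. ITGAE passed without the variance trend (log2 fold change 0.36, adjusted p = 0.0302). Among the related lists, leaving out 1 library gave 12 to 20 calls for the adhesion machinery, 2 to 7 for the hemidesmosome and laminin linkers and 7 to 10 for the basement membrane partners, and the linkers fell to 4 calls without the variance trend. Where a library is left out, the lone library of its group is assumed to vary like the other group. Replicates 1 and 2 share only a number: the deviations of same-numbered libraries correlated at 0.123. With the replicate number as a block (replicate block), 9 integrins and 3 laminins passed, the added call being ITGAV (log2 fold change -0.30, adjusted p = 0.0161, and 0.0288 with the length adjustment as well). The block gave 24 calls for the adhesion machinery, 8 for the linkers, 11 for the basement membrane partners and 15 for the matrix ligands. edgeR and DESeq2 were not run, since the tables hold no counts. With 2 libraries per group at this depth, genes below 1 FPKM rest on few reads.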
